A study of Rattus norvegicus with 36 samples.

Results

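Daily dosing with 0.959 mg/kg of decabromodiphenyl ether (decaBDE), a brominated flame retardant, was compared with dosing of its vehicle in rat liver. All 6 arrays labelled with this dose and all 6 vehicle arrays were taken, 12 of the 36 arrays of the series, and every probe set that is not an array control was tested. The animals of both groups were male Harlan Sprague Dawley rats on the NTP-2000 diet, 7 weeks old when dosing began. For 5 consecutive days they were gavaged with corn oil at 5 ml/kg, which carried decaBDE in the treated group and nothing in the vehicle group. RNA came from the left lobe of the liver, collected 1 day after the last gavage, and was hybridised to Affymetrix arrays. The other 24 arrays hold the doses 0.1, 9.59, 95.9 and 959 mg/kg, 6 arrays each. No treatment or genotype other than the dose separates the groups in the labels. Whole lobe tissue holds every cell type of the liver.

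The liver meets fat-soluble foreign compounds with enzymes that oxidise them, enzymes that attach glucuronic acid, glutathione or sulfate to the products, and pumps that export the conjugates. In hepatocytes this set is largely controlled by the nuclear receptors CAR (encoded by Nr1i3) and PXR (Nr1i2), which bind DNA with the partner RXR. In rodents the Cyp2b genes are the classical targets of CAR and Cyp3a genes those of PXR. A separate sensor, the aryl hydrocarbon receptor (AhR), controls the Cyp1a genes.

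Levels are the deposited log2 RMA signals, on which the median probe set stood at 5.16, and a difference of 1 is a 2-fold change. Values are differences of log2 means, 0.959 mg/kg minus vehicle, with limma standard errors (SE), and a probe set is called where its Benjamini-Hochberg adjusted p over all 31042 probe sets is under 0.05. Medians of the arrays ran from 5.12 to 5.21 over the series, and the lowest Pearson's r between any pair of the 12 arrays was 0.993 across probe sets, which are not independent replicates. The liver label was borne by 20 measured hepatocyte markers, whose mean level was 13.98 to 14.03 in vehicle and 13.97 to 14.03 at 0.959 mg/kg. Exocrine pancreas markers, of which 12 were measured, averaged 4.38 to 4.59 in vehicle and 4.37 to 4.61 at 0.959 mg/kg. RNA quality was read from the beta-actin control probe sets, whose 3' end exceeded the 5' end by 1.16 ± 0.0505 (SD, n = 6) in vehicle arrays and by 1.23 ± 0.107 (SD, n = 6) in treated arrays (two-sided exact permutation p = 0.208, 0.416 adjusted over 2 control genes). The labels do not say that every array is a separate rat, so the p-values measure the spread between arrays. For limma's SE and p this spread was pooled over all 36 arrays of the series, not only the 12 compared.

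At 0.959 mg/kg, 9 probe sets rose (0.029% of those tested) and 0 fell (0%). They held 5 genes of 1 symbol, which were the P450 genes Cyp3a23-3a1 and Cyp2c6v1, the glucuronosyltransferase Ugt2b1, the magnesium transporter Mmgt1 (on 2 probe sets) and the glycogen-binding Stbd1. A probe set that the annotation gives to 2 Cyp2b genes rose most, and 2 dim probe sets had no symbol. For 6 of the 9, each of the 6 treated arrays lay above every vehicle array, as did 83 probe sets in all (0.267%), while 44 lay entirely below (0.142%). At an unadjusted limma p under 0.05 there were 915 decreases (2.95%) and 967 increases (3.12%). Most probe sets hardly differed, with an SD of all differences of 0.105 and a median of 0.00429. Differences above 0.5 were found for 30 probe sets and below -0.5 for 64. A fit of only these 12 arrays called 1 probe set, that of the Cyp2b subfamily, and the count was 5 without vehicle replicate 2, 4 without vehicle replicate 5 and 5 without 0.959 mg/kg replicate 2.

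**Figure D1:**
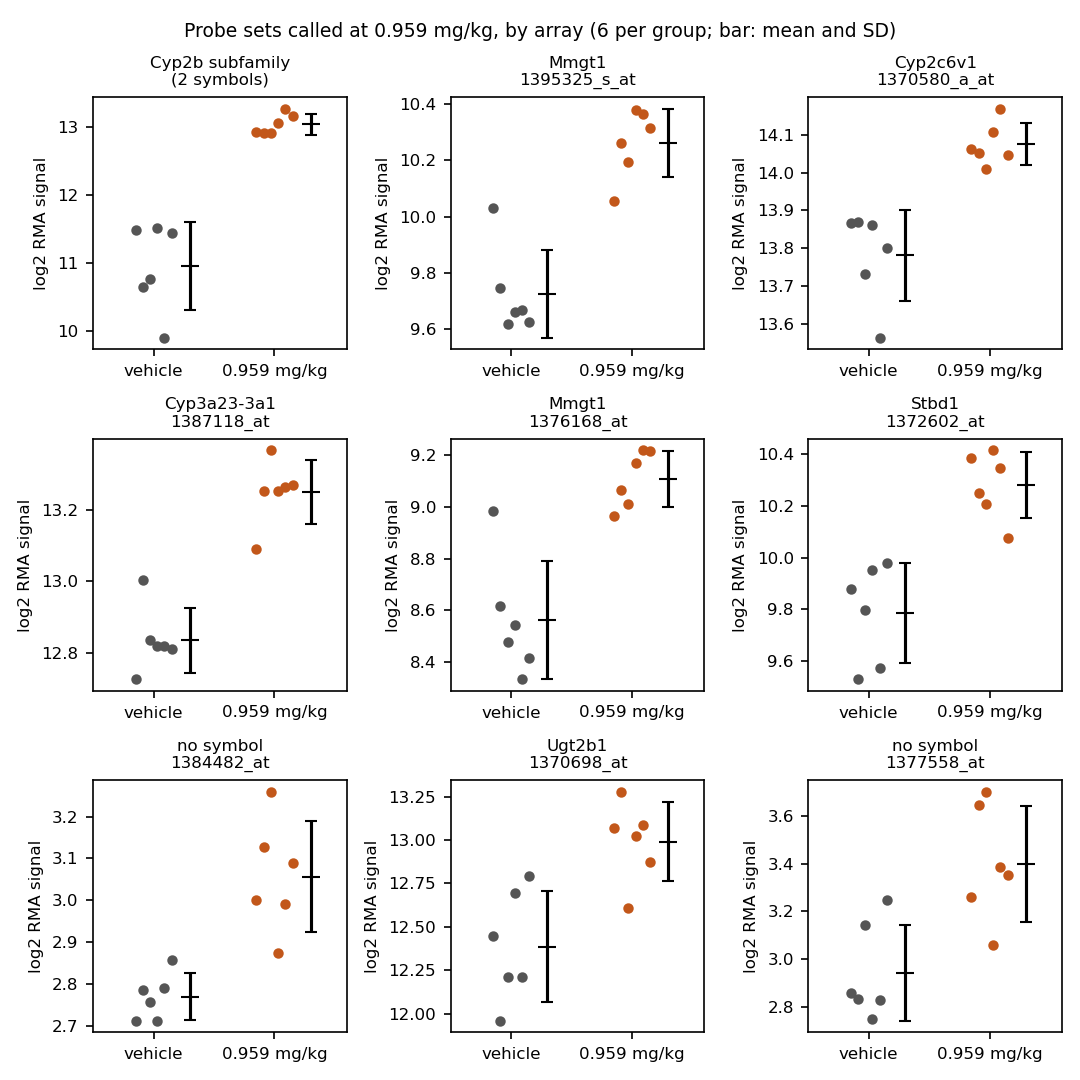
The log2 RMA signal of the 9 probe sets called at 0.959 mg/kg is plotted for each of 6 vehicle arrays (grey) and 6 treated arrays (orange), with bars for the mean and SD and a separate axis for each probe set. The groups do not overlap for 6 of the 9, and the Cyp2b-subfamily probe set has a wider spread in vehicle (SD 0.645) than at 0.959 mg/kg (SD 0.151).

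Cyp2b enzymes oxidise a broad range of lipophilic drugs and are the usual readout of CAR. The Cyp2b-subfamily probe set (1371076_at) had a lowest, median and highest level of 9.90, 11.11 and 11.52 in vehicle and of 12.90, 12.99 and 13.26 at 0.959 mg/kg. The lowest treated array therefore stood more than 1 log2 unit above the highest vehicle array. It rose by 2.07 (SE 0.177, adjusted p = 3.32e-09), or 4.21-fold. The call held in each of 12 fits that left out 1 array, with differences of 1.86 to 2.18 and adjusted p up to 3.92e-08. The lowest vehicle level belonged to replicate 5, which also had the lowest level of Nr1i3, the gene of CAR (6.92, with the other vehicle arrays at 7.86 to 8.39). Cyp2b3, a member of the subfamily with a probe set of its own, had a mean of 13.18 in vehicle and a difference of -0.07, while the probe set of Cyp2b12 was dim, at 2.98 in both groups.

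Cyp3a23-3a1 encodes a P450 induced through PXR. Its level was 12.73, 12.82 and 13.003 (lowest, median, highest) in vehicle and 13.09, 13.26 and 13.37 at 0.959 mg/kg. The groups did not overlap, and the gene rose by 0.41 (SE 0.0651, adjusted p = 0.00216), or 1.33-fold. Leaving out any 1 array kept the call, with adjusted p from 0.00115 to 0.0118, while the fit of only the 12 arrays gave 0.0595. The related Cyp3a2, a P450 of male liver, ran from 14.01 to 14.14 in vehicle and from 14.05 to 14.20 at 0.959 mg/kg, with overlapping groups and a difference of 0.07 (SE 0.0399, adjusted p = 0.882). Cyp3a9 had a larger difference of 0.77, but its arrays ran from 7.46 to 9.02 in vehicle and from 7.43 to 9.55 at 0.959 mg/kg (SE 0.318, adjusted p = 0.791). Cyp3a18 had 0.02.

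PXR paired with RXR is known to bind repeats of the element AGNTCA, so the promoters of both Cyp3a genes are shown, from 250 bases before to 50 after the start in RefSeq's GRCr8 build, 5' to 3' on the gene's strand. Capitals mark 2 copies of AGNTCA that point the same way with 3 bases between them, searched on both strands.

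Cyp3a23-3a1, chr12:14398754-14399053, minus strand: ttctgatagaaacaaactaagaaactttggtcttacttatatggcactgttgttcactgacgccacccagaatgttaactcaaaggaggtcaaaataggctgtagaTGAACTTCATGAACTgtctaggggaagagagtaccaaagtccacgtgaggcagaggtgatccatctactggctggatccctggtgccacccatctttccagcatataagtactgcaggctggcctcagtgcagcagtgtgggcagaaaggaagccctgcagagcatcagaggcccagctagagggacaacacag
Cyp3a2, chr12:14343808-14344107, minus strand: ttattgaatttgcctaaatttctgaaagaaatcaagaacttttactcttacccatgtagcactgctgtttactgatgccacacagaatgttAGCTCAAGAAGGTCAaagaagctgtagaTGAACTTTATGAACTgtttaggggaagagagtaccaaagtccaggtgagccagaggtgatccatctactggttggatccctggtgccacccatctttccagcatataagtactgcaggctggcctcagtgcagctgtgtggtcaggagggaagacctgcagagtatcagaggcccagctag

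Such a repeat was present in 26 of 33469 promoters of the same length (0.0777%). The Cyp3a23-3a1 promoter held 1, from 144 to 130 bases before the start and on the opposite strand. The Cyp3a2 promoter held 2, one from 159 to 145 bases before the start on the gene's strand and one from 131 to 117 on the opposite strand. The promoters were identical at 254 of 315 aligned columns (80.6%). Those of Cyp3a9 and Cyp3a18 held no such repeat in this window. The search also took in direct repeats spaced by 4 or 5 bases and copies pointing apart with 6 bases between them. These forms were present in 0.0568%, 0.0896% and 0.0388% of all promoters and in none of these Cyp3a promoters. Of the 5 called genes, Mmgt1 and Cyp2c6v1 were not matched in the promoter table.

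Cyp2c6v1 is a constitutive P450 of rat liver. It had 13.56, 13.83 and 13.87 in vehicle and 14.01, 14.06 and 14.17 at 0.959 mg/kg, with no overlap. It rose by 0.29 (SE 0.0462, adjusted p = 0.00216), or 1.23-fold, and this call held without any 1 of the 12 arrays (adjusted p up to 0.0158) but not in the fit of these arrays alone (0.324). Cyp2c11, the male-specific P450, likewise had 6 of 6 treated arrays above every vehicle array (13.60 to 13.71 in vehicle, 13.72 to 13.86 treated), with a difference of 0.14 that was not called (adjusted p = 0.756). Over the P450 list, 2 of 19 measured genes rose and 0 fell, 12 were positive, and the median was 0.025 against 0.00533 over all 14217 genes. Cyp2c12, Cyp2e1 and Cyp2c7 had -0.27, -0.04 and -0.08.

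Por, the reductase that hands electrons to every microsomal P450, had 8.26, 8.52 and 8.65 in vehicle and 8.75, 8.88 and 9.18 at 0.959 mg/kg. All 6 treated arrays were above all vehicle arrays, yet the difference of 0.43 (SE 0.103) did not pass (adjusted p = 0.321). Cyb5a, the cytochrome b5 that assists P450s, also lay entirely above vehicle, with 13.55 to 13.62 against 13.65 to 13.74 and a difference of 0.12 (adjusted p = 0.617, and 0.00276 without variance moderation). Alas1, the rate-limiting enzyme of haem synthesis, had a difference of 0.24 with overlapping groups (9.96 to 11.00 against 10.31 to 11.23). Of the 14 genes measured for electron transfer and haem supply, 12 were positive, 3 had an increase with an unadjusted p under 0.05 (3.26% of all genes), 0 passed adjustment and the median was 0.0938.

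Among hydrolases, reductases and aldehyde oxidases, 0 of 23 genes passed, 4 had an unadjusted p under 0.05 and the median was 0.0353. Ces2c, a carboxylesterase, had 7.35, 7.54 and 7.73 in vehicle and 7.75, 8.10 and 8.20 at 0.959 mg/kg. Its groups did not overlap, with a difference of 0.48 (SE 0.119, adjusted p = 0.352). Ephx1, the microsomal epoxide hydrolase, had 0.21 and Aldh1a1, a retinaldehyde dehydrogenase, 0.22, each with 4 of 6 arrays above every vehicle array.

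Of the 37 conjugation genes, 1 rose and 0 fell, 29 were positive (78.4%, against 52.6% of all genes) and the median was 0.0626. Ugt2b1 attaches glucuronic acid to steroids and drugs. Its level was 11.96, 12.33 and 12.79 in vehicle and 12.61, 13.05 and 13.28 at 0.959 mg/kg, and 5 of 6 treated arrays lay above every vehicle array. It rose by 0.60 (SE 0.118, adjusted p = 0.041), or 1.52-fold, a call that held in 3 of 12 fits without 1 array (adjusted p up to 0.198). Without variance moderation the adjusted p was 0.0952, and with an intensity trend it was 0.079. Its promoter is printed because, of the called genes outside the P450s that the table matched, it alone held copies of AGNTCA, which are in capitals.

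Ugt2b1, chr14:21378632-21378931, plus strand: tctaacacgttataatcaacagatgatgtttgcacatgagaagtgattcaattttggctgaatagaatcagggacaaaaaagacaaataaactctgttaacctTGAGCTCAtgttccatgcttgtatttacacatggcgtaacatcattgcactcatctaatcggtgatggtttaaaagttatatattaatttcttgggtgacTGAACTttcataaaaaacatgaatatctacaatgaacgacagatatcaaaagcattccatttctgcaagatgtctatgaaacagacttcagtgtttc

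The Ugt2b1 promoter held 3 copies of AGNTCA, 2 of them overlapping on opposite strands from 147 to 140 bases before the start. The third copy lay from 47 to 42 bases before it, and no repeat of any form searched was found. At least 1 copy was found in 46.7% of all promoters. The promoter of Stbd1 held 0.

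Gsta4, a glutathione transferase that clears lipid aldehydes, had 10.97, 11.12 and 11.35 in vehicle and 11.35, 11.43 and 11.54 at 0.959 mg/kg. Its treated arrays were all above vehicle, with a difference of 0.30 (SE 0.073, adjusted p = 0.352). Ugt2b10 had 0.26 and Gstm3 0.32, with 4 and 3 of 6 arrays above vehicle. A pair of probe sets assigned to 8 Ugt1a genes had 0.15 (1370613_s_at) and 0.18 (1387759_s_at), each with 5 of 6 arrays above every vehicle array (adjusted p = 0.756 and 0.696).

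Transport came next. Abcc3 exports glucuronides and other conjugates from hepatocytes to blood. It stood near the median of all probe sets, at 4.58, 5.42 and 5.52 in vehicle and 5.50, 5.94 and 6.70 at 0.959 mg/kg. Its difference of 0.78 was the largest in the drug-metabolism lists and was not called (SE 0.183, adjusted p = 0.259), and the treated arrays were also spread widely (SD 0.415). Abcc4, another conjugate exporter, had 0.36 with 3 of 6 arrays above vehicle, and Abcc2, the canalicular exporter, had 0.18 with 1 of 6. Of 15 transporters measured, 0 passed, 4 had an unadjusted p under 0.05, 8 were positive and the median was 0.0236, which ran from -0.00657 without 0.959 mg/kg replicate 6 to 0.0634 without vehicle replicate 2.

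Of the receptors, Nr1i3 had a difference of 0.30 (SE 0.186, adjusted p = 0.886) and Nr1i2 -0.05 (SE 0.0675, adjusted p = 0.954), both with overlapping groups. Leaving out 1 array at a time gave Nr1i3 differences from 0.105 to 0.40. Ahr had 4.11, 4.80 and 5.32 in vehicle and 4.78, 5.37 and 5.90 at 0.959 mg/kg, a difference of 0.61 on its brighter probe set (SE 0.18, adjusted p = 0.643) and of 0.15 on the other. In Ahr, 3 of 6 treated arrays were above every vehicle array. The genes that AhR controls were close to vehicle. Cyp1a1 had 4.40 to 4.88 in vehicle and 4.45 to 5.01 at 0.959 mg/kg, a difference of -0.01 (SE 0.222), and Cyp1a2 had 13.08 to 13.23 and 13.12 to 13.32, a difference of 0.05 (SE 0.0539). Of 9 AhR targets 0 passed, with a median of 0.0343, and Nqo1, which NRF2 also controls, had the largest difference at 0.31.

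**Figure D2:**
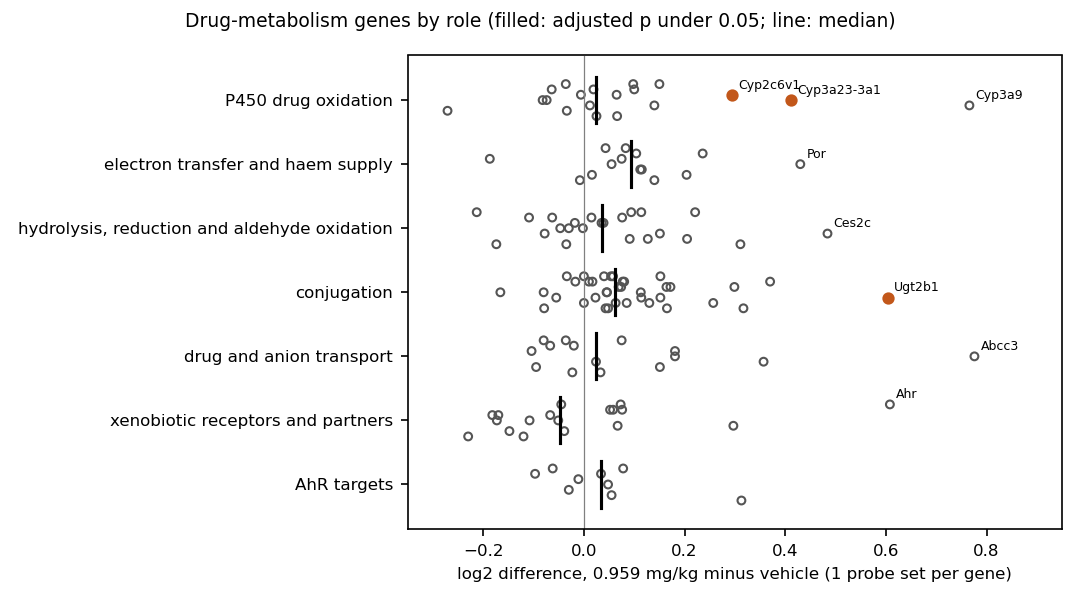
Each point is the log2 difference, 0.959 mg/kg minus vehicle, of 1 gene in 7 lists of drug-metabolism genes (genes as vertical groups, 1 probe set per gene), with filled points for adjusted p under 0.05 and a black line at each list's median. The 3 called genes lie in the P450 and conjugation lists, and the Abcc3, Cyp3a9 and Ahr points lie at 0.78, 0.77 and 0.61 without passing. The probe set shared by 2 Cyp2b genes is in no list.

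Outside drug metabolism, Mmgt1, a membrane magnesium transporter and subunit of a complex that inserts membrane proteins, rose on both of its probe sets. On 1395325_s_at the level was 9.62, 9.66 and 10.03 in vehicle and 10.06, 10.29 and 10.38 at 0.959 mg/kg, a rise of 0.54 (SE 0.0737, adjusted p = 0.000251). On 1376168_at it was 8.33, 8.51 and 8.98 in vehicle and 8.96, 9.12 and 9.22 treated, a rise of 0.54 (SE 0.0938, adjusted p = 0.00849). Vehicle replicate 1 had the highest vehicle level on both, and on 1376168_at 1 treated array lay below it. The first call held without any 1 array and the second was lost without vehicle replicate 5 (adjusted p = 0.062).

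Stbd1 anchors glycogen to membranes. It had 9.53, 9.84 and 9.98 in vehicle and 10.08, 10.30 and 10.42 at 0.959 mg/kg, without overlap, and rose by 0.50 (SE 0.092, adjusted p = 0.0228), or 1.41-fold. The call held in 5 of 12 fits without 1 array (adjusted p up to 0.145). Cndp2, a cytosolic dipeptidase, fell just outside the threshold, at 8.81, 8.95 and 9.12 in vehicle and 9.11, 9.35 and 9.42 treated. Its difference was 0.36 (SE 0.0741, adjusted p = 0.0826), with 5 of 6 arrays above vehicle, and it passed with array weights (0.0196), with an intensity trend (0.0409) or without 0.959 mg/kg replicate 4 (0.0293). Ntn1, a secreted guidance protein, had 0.31 (adjusted p = 0.352), and its highest treated level was that of replicate 6, at 7.06 against 6.64 to 6.78 in the others. The dimmer probe sets of Ntn1 had -0.10 and 0.005.

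The 2 called probe sets with no symbol were dim. One, 1384482_at, had 2.71, 2.77 and 2.86 in vehicle and 2.87, 3.04 and 3.26 at 0.959 mg/kg, a rise of 0.29 (SE 0.0536, adjusted p = 0.0228). The other, 1377558_at, had 2.75, 2.85 and 3.25 in vehicle and 3.06, 3.37 and 3.70 treated, a rise of 0.46 (SE 0.0897, adjusted p = 0.0435). Both calls held in 4 of 12 fits without 1 array. Both lie below the median level of 5.16, and their distance from the array background was not measured.

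The remaining doses placed 0.959 mg/kg in the series. These comparisons share the vehicle or the 0.959 mg/kg arrays, so they are not independent of each other. Against vehicle, at 9.59 mg/kg 33 probe sets rose (0.106%) and 3 fell (0.00966%), at 95.9 mg/kg 26 (0.0838%) and 2 (0.00644%), and at 959 mg/kg 32 (0.103%) and 2 (0.00644%). Of the 9 probe sets called at 0.959 mg/kg, 7 were called at each of the 3 higher doses. The 2 dim probe sets without symbol were called at none of them, with differences from vehicle of -0.0048 and 0.0055 at 9.59 mg/kg.

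Set directly against 0.1 mg/kg, 0.959 mg/kg had 2 probe sets higher (0.00644%) and 0 lower. The Cyp2b-subfamily probe set had means of 10.96 ± 0.645 in vehicle, 11.45 ± 0.321 at 0.1 mg/kg and 13.04 ± 0.151 at 0.959 mg/kg (SD, 6 arrays each), and rose by 1.59 from the lower dose (SE 0.177, adjusted p = 4.02e-06). Cyp3a23-3a1 rose by 0.39 from 0.1 mg/kg (SE 0.0651, adjusted p = 0.0127), where its mean was 12.86, against 12.84 in vehicle. The other called genes did not pass this comparison, with differences of 0.37 for Mmgt1 (1395325_s_at), 0.21 for Cyp2c6v1, 0.48 for Ugt2b1 and 0.34 for Stbd1.

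At 9.59 mg/kg 0 probe sets were higher than at 0.959 mg/kg (0%) and 1 was lower (0.00322%), a probe set without symbol (1395485_s_at, -0.59, adjusted p = 0.0475). The Cyp2b-subfamily probe set had a mean of 13.51 at 9.59 mg/kg, 0.48 above 0.959 mg/kg (SE 0.177, adjusted p = 0.524). Ces2c and Abcc3, which did not pass at 0.959 mg/kg against vehicle, were called at 9.59 mg/kg with 0.95 and 1.28. Their step from 0.959 to 9.59 mg/kg was 0.46 (SE 0.119, adjusted p = 0.277) and 0.50 (SE 0.183, adjusted p = 0.52), so the doses were not shown to differ in them. Por was also called at 9.59 mg/kg, with 0.49 there and 0.43 at 0.959 mg/kg, a step of 0.06 (SE 0.103, adjusted p = 0.934). It was not called at 95.9 mg/kg (0.38, limma adjusted p = 0.217) but was at 959 mg/kg (0.58, limma adjusted p = 0.00473).

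Between 0.959 and 959 mg/kg, 2 probe sets were higher at the top dose (0.00644%) and 0 lower. They were Cyp1a1, which rose by 4.73 (SE 0.222, adjusted p = 3.35e-17) from a mean of 4.68 to 9.41, and Cyp1a2, which rose by 0.48 (adjusted p = 2.3e-06) from 13.21 to 13.69. The Cyp2b-subfamily probe set had a step of 0.53 from 0.959 mg/kg (adjusted p = 0.934), and that of Ugt2b1 was 0.30 (adjusted p = 0.934).

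**Figure D3:**
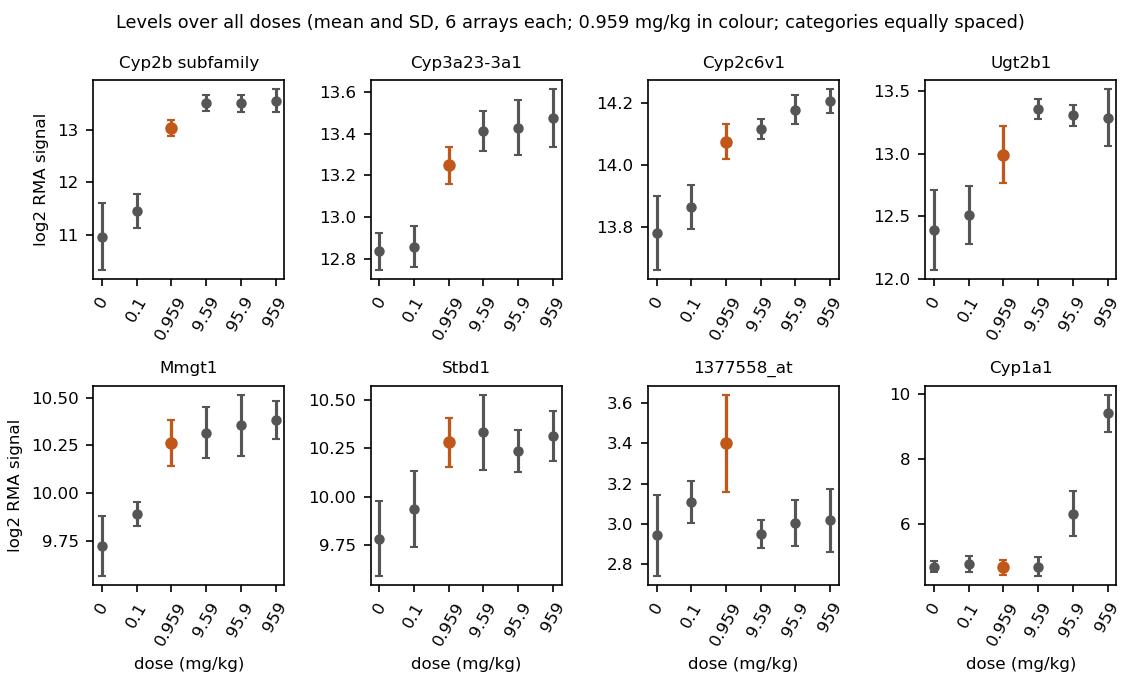
Mean log2 RMA signal with SD over 6 arrays is plotted for 8 probe sets in vehicle (dose 0) and at each dose in mg/kg, with doses as evenly spaced categories and 0.959 mg/kg in orange. The Cyp2b-subfamily mean is 11.45 at 0.1 mg/kg, 13.04 at 0.959 mg/kg and 13.51 at 9.59 mg/kg, the dim probe set 1377558_at is highest at 0.959 mg/kg, and Cyp1a1 stays at 4.68 there against 9.41 at 959 mg/kg.

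Gene lists outside drug metabolism are given by counts and medians, beside the same for all 14217 genes, of which 3.26% had an increase and 3.49% a decrease with an unadjusted p under 0.05. Of 20 cholesterol synthesis genes, 20 were positive and 12 had such an increase, with a median of 0.208, and 0 were called. The mean level of the list was 10.09 to 10.45 in vehicle and 10.44 to 10.63 at 0.959 mg/kg, with 5 of 6 treated arrays above every vehicle array. Lss, which closes the sterol ring, had 9.31, 9.60 and 9.78 in vehicle and 9.80, 9.91 and 10.03 treated, without overlap (0.32, adjusted p = 0.744). Mvd and Idi1, enzymes of isoprenoid synthesis, had 0.36 and 0.33, and Cyp51, which demethylates lanosterol, had 0.23. Srebf2, the regulator of the pathway, had 0.08 and Insig1, its feedback sensor, 0.09. At 9.59, 95.9 and 959 mg/kg, Lss, Mvd, Idi1 and Cyp51 differed from vehicle by -0.10 to 0.06, none called. Their steps from 0.959 to 9.59 mg/kg, -0.39 to -0.22, did not pass (limma adjusted p = 0.325 to 0.586).

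In fatty acid and triglyceride synthesis the 24 genes had a median of 0.0837 and 15 were positive. Acly, which makes cytosolic acetyl-CoA, had 0.38, Me1, the malic enzyme that supplies NADPH, 0.36 and Pnpla3, a lipid-droplet lipase, 0.52, while the desaturase Scd had -0.48, and none passed. PPARA targets and fatty acid oxidation genes were centred near 0 (32 genes, median -0.00891, which was 0.000501 with each array set to its own median). Cpt1a, the gate of fatty acid entry into mitochondria, had -0.36. NRF2 targets, genes of antioxidant defence, had 16 of 18 positive and a median of 0.144, led by Me1, Abcc4 and Nqo1. The glutathione reductase Gsr had 0.25, with 5 of 6 arrays above vehicle, and 5 of the 18 had an unadjusted p under 0.05 while 0 were called.

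Bile acid genes had 15 of 19 negative and a median of -0.0802. Abcb4, the canalicular phospholipid pump, had -0.18, Nr1h4, the bile acid receptor FXR, -0.18 and Cyp7a1, the rate-limiting enzyme of bile acid synthesis, 0.25. In gluconeogenesis and glucose handling Stbd1 was the 1 gene of 20 that rose, 12 were negative and the median was -0.0321. Pck1, the control enzyme of gluconeogenesis, had 12.95, 13.26 and 13.68 in vehicle and 12.32, 12.74 and 13.14 at 0.959 mg/kg, a difference of -0.56 (SE 0.245, adjusted p = 0.795) with 4 of 6 arrays below every vehicle array. Igfbp1, a fasting-induced binding protein, had -0.64 and Pfkfb1, which sets the switch between glycolysis and gluconeogenesis, 0.32. Among 15 genes of thyroid hormone handling and response, 0 passed and the median was -0.0977, or 0.0307 over all probe sets of these genes. Thrsp and Dio1, genes induced by thyroid hormone, had 0.23 and 0.07, while Klf9 and Hr, which the hormone also induces, had -0.10 and -0.15.

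Of the markers of hepatocyte zones, those of the periportal zone had 13 of 16 negative and a median of -0.0972. Their mean level was 11.42 to 11.47 in vehicle and 11.23 to 11.35 at 0.959 mg/kg, so that all 6 treated arrays lay below all vehicle arrays. Pck1, Tat and Hal, a histidine-degrading enzyme, had -0.56, -0.43 and -0.30 and were the 3 lowest, Gls2, a glutaminase, had -0.20, and 0 of the 16 passed. Pck1 and Tat are also in the glucose list and Pck1 in the thyroid list, so these lists are not separate evidence. Pericentral markers had 9 of 16 positive and a median of 0.0265, whose sign turned without vehicle replicate 1 (-0.0269) and over all probe sets of these genes (-0.0252). Aldh1a1 had 0.22, the glutamate transporter Slc1a2 0.30 (with -0.04 on a dimmer probe set) and Slc1a4, an amino acid transporter, -0.40. Vehicle replicate 5 had the lowest pericentral mean of the group, at 9.10 with the others at 9.30 to 9.33.

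Most markers of immune cells had negative differences, and 0 were called. Of 17 measured markers of Kupffer cells and macrophages, 15 were negative, 12 had a decrease with an unadjusted p under 0.05 and 0 were called, with a median of -0.445. The mean level of the list was 8.27, 8.98 and 9.08 (lowest, median, highest) in vehicle and 8.16, 8.52 and 8.77 at 0.959 mg/kg. Vehicle replicate 2 held the lowest vehicle value, with the other 5 at 8.89 to 9.08, above all treated arrays. Without it the median difference was -0.594. Mrc1, the mannose receptor, had 8.73, 8.80 and 8.94 in vehicle and 8.40, 8.46 and 8.59 treated, without overlap (-0.35, SE 0.0954, adjusted p = 0.497). At 0.1, 9.59, 95.9 and 959 mg/kg Mrc1 differed from vehicle by -0.25, -0.22, -0.01 and -0.03, none called. Its difference between 0.959 and 0.1 mg/kg was -0.10 (limma adjusted p = 0.998). Adgre1, a macrophage surface receptor, had -0.66, Csf1r, the receptor for macrophage growth factor, -0.43, and Clec4f, a lectin of Kupffer cells, -0.52. Lyz2 and Cd14, the 2 positive markers, had 0.15 and 0.03. Some markers of the list, these 2 included, are also expressed by other cells. In whole liver, fewer cells of a type and less RNA per cell cannot be told apart.

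Lymphocyte markers had 16 of 18 negative, 8 with a decrease at an unadjusted p under 0.05, and a median of -0.208. Their mean level was 4.92 to 5.23 in vehicle and 4.79 to 4.95 treated, with 5 of 6 treated arrays below every vehicle array. Il2rg, the shared chain of cytokine receptors, had 5.22, 5.35 and 5.69 in vehicle and 4.69, 5.02 and 5.14 at 0.959 mg/kg, without overlap (-0.42, SE 0.107, adjusted p = 0.381). At 0.1, 9.59, 95.9 and 959 mg/kg Il2rg was also below vehicle, by -0.26, -0.22, -0.22 and -0.14, none called. Its difference between 0.959 and 0.1 mg/kg was -0.16 (limma adjusted p = 0.998), so those doses were not shown to differ in it. Gzma, a granule protease of killer cells, had -0.65 and Cd4 -0.22. The 2 positive markers were Cd79b and Cd5, with 0.10 and 0.12. Of the 18 markers, 11 lay below the median level of all probe sets. Endothelial markers had 13 of 15 negative and a median of -0.0904. Kdr, the receptor of vascular growth factor, lay without overlap at 9.67 to 9.96 in vehicle and 9.48 to 9.65 treated (-0.21, adjusted p = 0.617), with 0.02 on a dimmer probe set, and Tek, the angiopoietin receptor, had -0.30. Genes of the interferon response had 21 of 25 negative, 0 with an unadjusted p under 0.05, and a median of -0.263, which was -0.407 without vehicle replicate 2. Their mean level varied among vehicle arrays from 6.43 in replicate 2 to 7.91 in replicate 5, a range that held 5 of the 6 treated arrays (6.39 to 7.49). Markers of stellate cells, cholangiocytes, neutrophils and erythroid cells had medians of 0.0491, 0.0199, 0.0299 and -0.0504, with 0 calls. The 2 treated arrays with the lowest macrophage and interferon levels were replicates 4 and 3 (8.16 and 8.26 for macrophages), and they had the highest actin 3' to 5' differences of all 12 arrays, 1.42 and 1.26. Vehicle replicate 2, the lowest vehicle array in both lists, had 1.18 for actin, and for GAPDH the same 2 treated arrays had -0.102 and -0.0268, the lowest and the highest of the treated arrays. The part of RNA quality in these lists was not tested.

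**Figure D4:**
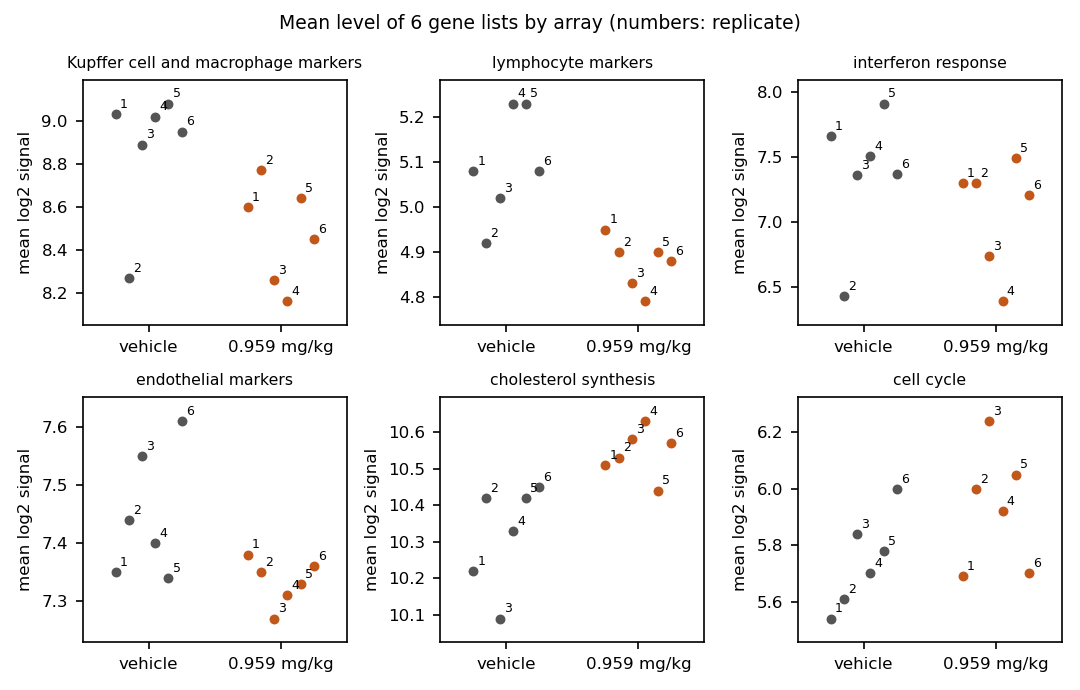
Each point is 1 array's mean log2 signal over the measured members of a list (vertical axis, separate for each of 6 lists), in 6 vehicle arrays (grey) and 6 arrays at 0.959 mg/kg (orange), numbered by replicate. Vehicle replicate 2 lies at 8.27 among macrophage markers, below the other vehicle arrays (8.89 to 9.08), and the cholesterol list has 5 of 6 treated arrays above every vehicle array.

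Cell cycle genes had 30 of 35 positive and a median of 0.188, with 5 increases at an unadjusted p under 0.05 and 0 calls. Ccnb1, the mitotic cyclin, had 4.42, 5.02 and 5.53 in vehicle and 4.87, 5.56 and 6.44 at 0.959 mg/kg (0.52, SE 0.229, adjusted p = 0.795), and treated replicate 3 held the highest level. Birc5 and Cdc20, mitotic regulators, had 0.28 and 0.38. The dimmer probe sets of Cdc20 had 0.235, 0.055, -0.02 and -0.03. The 6 genes of the replication helicase (Mcm2 to Mcm7) had differences from -0.03 for Mcm2 to 0.10 for Mcm4. Of the heat shock genes 13 of 13 were positive with a median of 0.12, led by Hsph1 (0.30), an Hsp70 co-chaperone, and Hspa4l (0.27). Genes of the unfolded protein and integrated stress response had a median of 0.00222. Chac1, a glutathione-degrading enzyme of that response, had -1.09 (SE 0.44), with vehicle replicates 2 and 5 at 9.10 and 10.03, the other vehicle arrays at 5.94 to 7.13 and the treated arrays at 5.64 to 6.83. Sesn2, a stress-induced sestrin also in the p53 list, had all 6 treated arrays below vehicle, at 7.30 to 7.75 against 6.84 to 7.24 (-0.38, adjusted p = 0.744), while its dimmer probe set had 0.04.

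The p53, acute phase, circadian and growth hormone lists had medians of 0.0577, -0.00789, -0.0253 and 0.00901, with 0 calls. Crp, an acute phase protein, had 0.16, and Hamp, the iron-regulating hormone hepcidin, -0.37 with a treated range of 11.55 to 12.98. Rora, a clock regulator, had all 6 treated arrays above vehicle (7.495 to 7.89 against 7.92 to 8.24), with a difference of 0.36 that did not pass (SE 0.195, adjusted p = 0.849). Its other, dimmer probe set had -0.11, with 0 arrays above and 2 below vehicle.

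Among decreases of genes named by the rule, Plcg2 had the smallest p. This phospholipase of immune receptors had 3.72, 3.89 and 3.95 in vehicle and 3.40, 3.51 and 3.76 at 0.959 mg/kg, a difference of -0.32 (SE 0.0672, adjusted p = 0.0979). It passed without 0.959 mg/kg replicate 1 (0.0291), the array that overlapped vehicle. A probe set of Il1a, an inflammatory cytokine, that is not the brightest of this gene had -0.70 (adjusted p = 0.0955) and was named after its value was seen. After Il2rg came Oaf (-0.50), Cd7, a surface protein of T and NK cells (-0.34), Tmem252 (-0.46) and Mrc1, each with adjusted p from 0.381 to 0.497.

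**Figure D5:**
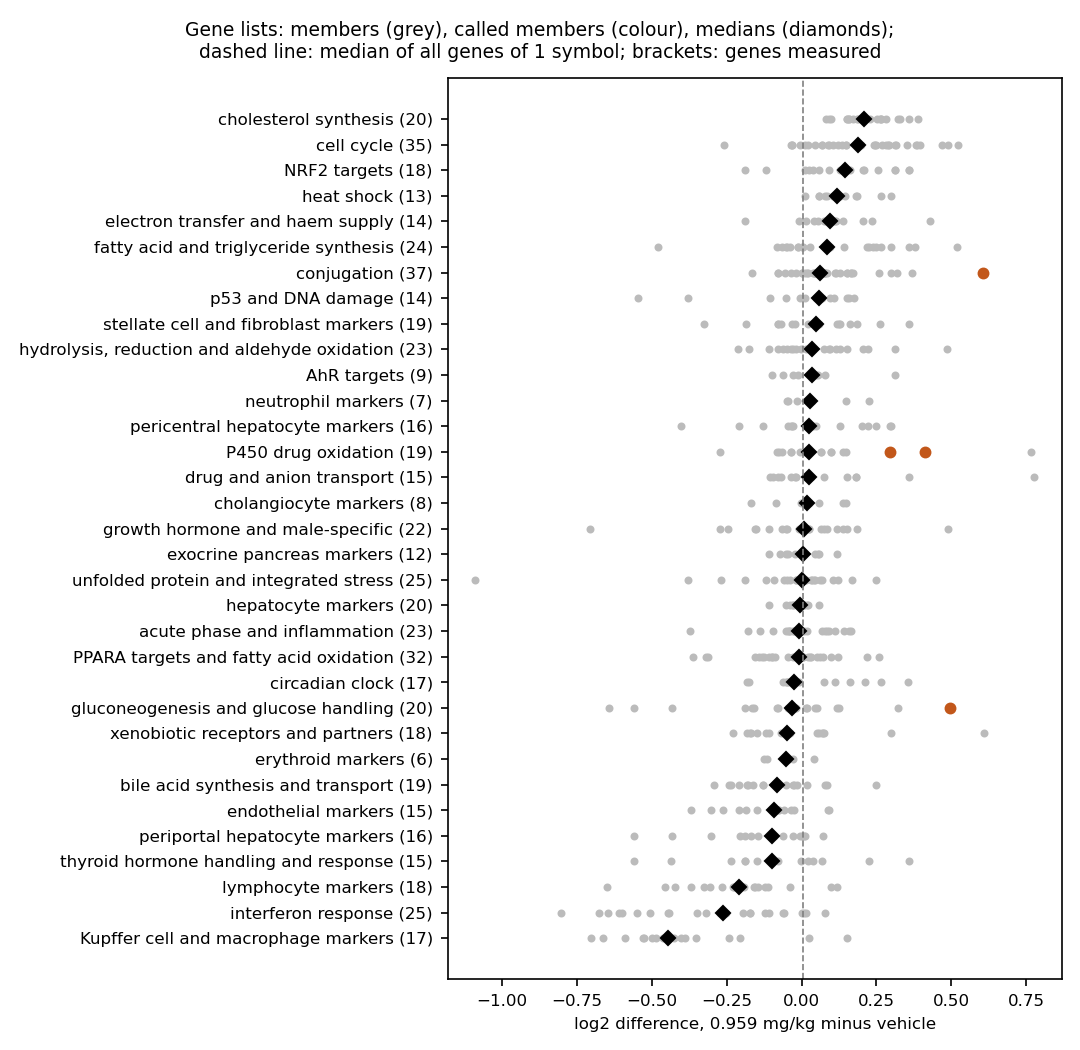
The log2 difference, 0.959 mg/kg minus vehicle, is plotted for the measured members (grey, or orange where called) and the median (diamond) of 33 gene lists, ordered by median, with a dashed line at the median of all genes. Medians run from -0.445 for Kupffer cell and macrophage markers to 0.208 for cholesterol synthesis, and 4 called genes lie in the P450, conjugation and glucose lists.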

How the data were processed

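Rat liver RNA of 36 samples was hybridised to Affymetrix arrays, and the deposited values are log2 signals that the authors made with RMA in the affy package, per the submitters' processing notes. The table holds 31099 probe sets, of which 57 array controls were left out. In GEO's platform annotation 20826 probe sets have 1 symbol, 436 have several and 9780 have no symbol, and 20758 gene IDs were found in RefSeq. For gene lists each of 14217 genes was represented by its brightest probe set. Differences were tested two-sided with limma 3.58.1 (lmFit and eBayes, in R 4.3.3) on all 36 arrays, with Benjamini-Hochberg adjustment over 31042 probe sets and a threshold of 0.05. The series' design text names another package, maanova, which was not used here. Values by array and figures were made with Python 3.11.15.

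Arrays of this comparison were simulated with 50 probe sets changed per size, all sizes in the same fit. On the log2 scale, limma called 4% of true changes of 0.25, 48% of 0.3, 84% of 0.5 and 100% of 1. There were 3 false calls among those of the 31042 probe sets that were left unchanged. The adjusted threshold loosens as more probe sets change, so these shares may overstate recovery here, where 9 probe sets were called. Promoters came from RefSeq's GRCr8 table. The members and the 33 gene lists were chosen with earlier results of these data known, so lists are described by counts and medians and not tested. Some genes belong to several lists, such as Me1 in the lipid synthesis, NRF2 and thyroid lists. Genes were named where they were called, had 1 of the 6 smallest p-values on either side below the calls, led their list by p (up to 4 each), led a contrast between doses or were followed whatever their value. Cyp2b3, Cyp2b12, Cyp3a18, Cyp2c12, Cyp2e1, Cyp2c7, Srebf2, Insig1, Scd, Cyp7a1, Tat, Clec4f, Lyz2, Cd14, Klf9, Hr, the Mcm genes and Il1a, and Cish and Bcl6 in the closing section, were chosen after their values were seen. So were Cd79b and Cd5. Alternatives were other scaling, filtering, variance and sample choices and leaving out each array. Arrays with the same replicate number did not deviate together, and whether the numbers mark a pairing was not settled. The number of arrays limits the precision.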

Additional observations from a re-analysis of the deposited data

Results flagged for a closer look

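Of 364 sets of 6 arrays examined (a gene or list in 1 group), 20 (5.49%) had 1 array far from the other 5 by Dixon's test, 11 in vehicle and 9 at 0.959 mg/kg, and chance alone flags about 1 in 20. Vehicle replicate 2 was low in the mean level of Kupffer cell and macrophage markers (8.27, the others 8.89 to 9.08), of interferon response genes (6.43, the others 7.36 to 7.91) and in the Fc receptor gene Fcgr1a (5.97, the others 6.40 to 6.64), and high in the tight junction gene Cldn4 (3.54, the others 3.02 to 3.21). Vehicle replicate 5 was low in Nr1i3 (6.92, the others 7.86 to 8.39) and in the mean of pericentral markers (9.10, the others 9.30 to 9.33). Vehicle replicate 1 was high in Mmgt1 on 1395325_s_at (10.03, the others 9.62 to 9.75), in the fibroblast receptor gene Pdgfra (8.06, the others 7.33 to 7.58) and in the acute phase mean (10.22, the others 10.11 to 10.15). Vehicle replicate 4 was high in Akr1c14 (12.22) and vehicle replicate 6 low in the elastase Cela1 (9.53).

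At 0.959 mg/kg, replicate 1 was low in Slc1a4 (5.23), Sesn2 (6.84) and the Ugt1a probe set 1387759_s_at (12.20, the others 12.29 to 12.32). Replicate 6 was high in Ntn1 (7.06) and in the mean of xenobiotic receptors (7.72, the others 7.58 to 7.63), and low in the erythroid factor Klf1 (3.84). Replicate 3 was low in Cldn4 (3.00), replicate 4 high in the hepatocyte factor Hnf4a (12.23, the others 11.69 to 11.84) and replicate 5 low in the clock mean (6.55).

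Effects differed between doses by limma's contrast of the doses for 5 probe sets. The Cyp2b-subfamily probe set 1371076_at was 1.59 and Cyp3a23-3a1 0.39 higher at 0.959 than at 0.1 mg/kg, and 1395485_s_at had -0.59 for 9.59 minus 0.959 mg/kg. Cyp1a1 and Cyp1a2 were 4.73 and 0.48 higher at 959 than at 0.959 mg/kg.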

How the results depend on the processing

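The 9 calls against vehicle were 7 to 10 when arrays were quantile normalized again or set to their own median, dim probe sets were filtered, variance moderation was left out, an intensity trend was fitted or arrays were weighted. They were 5 with the brightest probe set per gene and 1 in a fit of only the 12 arrays. Leaving out 1 array gave 4 to 10 calls. Without 0.959 mg/kg replicate 1, the 9 calls were 7 increases and 2 decreases. Same-numbered arrays did not deviate together, with r from -0.198 to -0.0318, and 0 of 6 correlated best with its own number. These correlations cannot settle whether same-numbered arrays were handled together. The replicate block gave 6 calls, losing Stbd1, Ugt2b1 and 1377558_at, and 0 in the fit of only the 12 arrays, an alternative chosen after seeing the data. The 2 calls against 0.1 mg/kg were 1 with the brightest probe set, the replicate block or only those 2 groups and 4 with an intensity trend. The 1 call of 9.59 minus 0.959 mg/kg was 0 under quantile normalization, array medians, the brightest probe set, the block and only those 2 groups, 2 with array weights and 3 without moderation. The 2 calls of 959 minus 0.959 mg/kg were 4 without moderation. With the brightest probe set, 44 genes lay above every vehicle array and 29 below. Over all probe sets of their genes the medians were 0.0226 for xenobiotic receptors, 0.0307 for thyroid genes and -0.0623 for periportal markers. Medians that changed sign under other scaling lay within 0.01 of 0 (PPARA targets, acute phase, hepatocyte and unfolded protein genes). Leaving out 1 array turned the sign of the median of the transport, pericentral, cholangiocyte, neutrophil, pancreas, circadian, growth hormone, acute phase and unfolded protein lists. Leaving out 1 array turned the sign of Alas2 (-0.0987 to 0.0305), Cpa1 (-0.0152 to 0.1149) and Cyp1a1 (-0.0764 to 0.0362), none of them called. For differences not explained by fewer genes or arrays tested the cause was not tested. In simulation 4% of true differences of 0.25 were called at 6 arrays per group, so changes of this size were mostly not detectable here.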

Other observations

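Among genes of growth hormone signalling and male-specific expression, Cish and Bcl6 varied widely between arrays. Cish, a feedback inhibitor of growth hormone signalling, had a mean of 5.49 in vehicle and 5.98 at 0.959 mg/kg (0.488, SE 0.567), and Bcl6, a repressor of female-biased genes, had 8.83 and 8.13 (-0.707, SE 0.96). The male-specific Cyp2c11 and Cyp3a2 differed by 0.14 and 0.07 with SEs of 0.0463 and 0.0399. None of these passed the threshold. Among interferon response genes, Psmb8, a subunit of the immunoproteasome, ran from 8.01 to 10.17 in vehicle and from 8.04 to 9.34 at 0.959 mg/kg, and Ifit3, an interferon-induced antiviral protein, from 3.88 to 5.93 and from 3.77 to 4.89, with differences of -0.61 and -0.64 that did not pass (SE 0.303 and 0.365).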
